A study of Mus musculus with 6 samples.

Results

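The genes described here encode enzymes and remodelling machines that act on chromatin, and the data show where on their RNA an antibody against ZFP36L2 recovered fragments over a control antibody. They were chosen by symbol alone: the KMT, SETD and EHMT histone methyltransferases, the KDM demethylases except Kdm5d, the acetyltransferases Crebbp and Ep300, the numbered HDAC deacetylases, the BRD, CHD, SMARC and ARID genes, and Ankrd11. Of 91 RefSeq symbols under that rule, 79 had at least 1 peak in the authors' deposited table, out of 10818 gene names in all. The other 12, among them Ep300, Hdac1, Kdm1a and Smarce1, were not analysed here. Together the 79 genes held 709 peaks of 55449, and none of the 709 carried a second gene name.

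The study used eCLIP in MLTC-1, a steroid-producing line from a Leydig cell tumour of the mouse. In this assay ultraviolet light (254 nm, 400 mJ per cm2, given to all cells here) joins proteins to the RNA they touch, immunoprecipitation recovers 1 protein, and the RNA joined to it is sequenced. The antibody against ZFP36L2 gave 2 immunoprecipitation libraries, and rabbit IgG, the negative control, gave 1. Each had a matched input library, a background of RNA bound by all proteins, so that there were 6 libraries in 4 groups, all from the same line with no genetic change named in the labels. For each peak the authors' deposited table gives, as ZFP36L2 over IgG, a log2 fold change, shortened here to log2 change, and an adjusted p, with 0 columns for single libraries. The values of the ZFP36L2 and IgG libraries could therefore not be shown apart, the depth is unknown, and the IgG arm rests on 1 library with no spread of its own. The titles give each immunoprecipitation a cell sample number of its own, but nothing in the labels says that these were separate cultures. Any spread behind the p-values may therefore be technical. The IgG library has a different sample number from both ZFP36L2 libraries, so antibody and sample cannot be told apart. The Leydig markers Cyp11a1, Lhcgr, Nr5a1 and Star had 35, 16, 6 and 3 peaks, and Hsd3b1, Cyp17a1 and Insl3 had 0.

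ZFP36L2 is a CCCH zinc finger protein of the tristetraprolin family, known for binding AU-rich elements, mostly in 3′ UTRs, and for speeding the decay of the bound mRNAs. Chromatin is set by several kinds of protein: writers add methyl or acetyl groups to histones, erasers remove them, readers such as bromodomain proteins dock on them, and remodellers use ATP to slide or evict nucleosomes. In Leydig cells the acetyltransferase CBP is known as a coactivator at the promoter of Star, the cholesterol transport gene. Most of the genes are long, with large introns, so a crosslinked fragment can come from the unspliced transcript as well as from the mRNA.

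Peaks with an adjusted p under 0.05 were called: enriched where the log2 change was 1 or higher, depleted where it was -1 or lower. The chromatin genes had 27 enriched peaks (3.81% of 709), against 2.22% of all peaks of the authors' deposited table. They had 24 depleted peaks (3.39%), against 5.44% of all peaks. A single gene, Smarca2, held 11 of the 27 enriched peaks. Without it, a setting added once the values were known, 16 of 680 peaks (2.35%) were enriched, near the 2.22% of the whole table.

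The 27 enriched peaks fell in 13 genes (16.5% of 79), against 5.04% of all gene names. Of these 13 genes, 9 had exactly 1 enriched peak. The 24 depleted peaks fell in 16 genes (20.3%), against 17.3% of all gene names. Both kinds occurred in 5 of the 79 genes, Smarca2, Ankrd11, Kdm4b, Arid1a and Kmt2d, against 107 of 10818 gene names (0.989%). These 5 genes had 29, 26, 13, 10 and 31 peaks, against a median of 3 per gene name. Their share was not split by peaks per gene. The remaining 55 genes had no called peak.

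**Figure D1:**
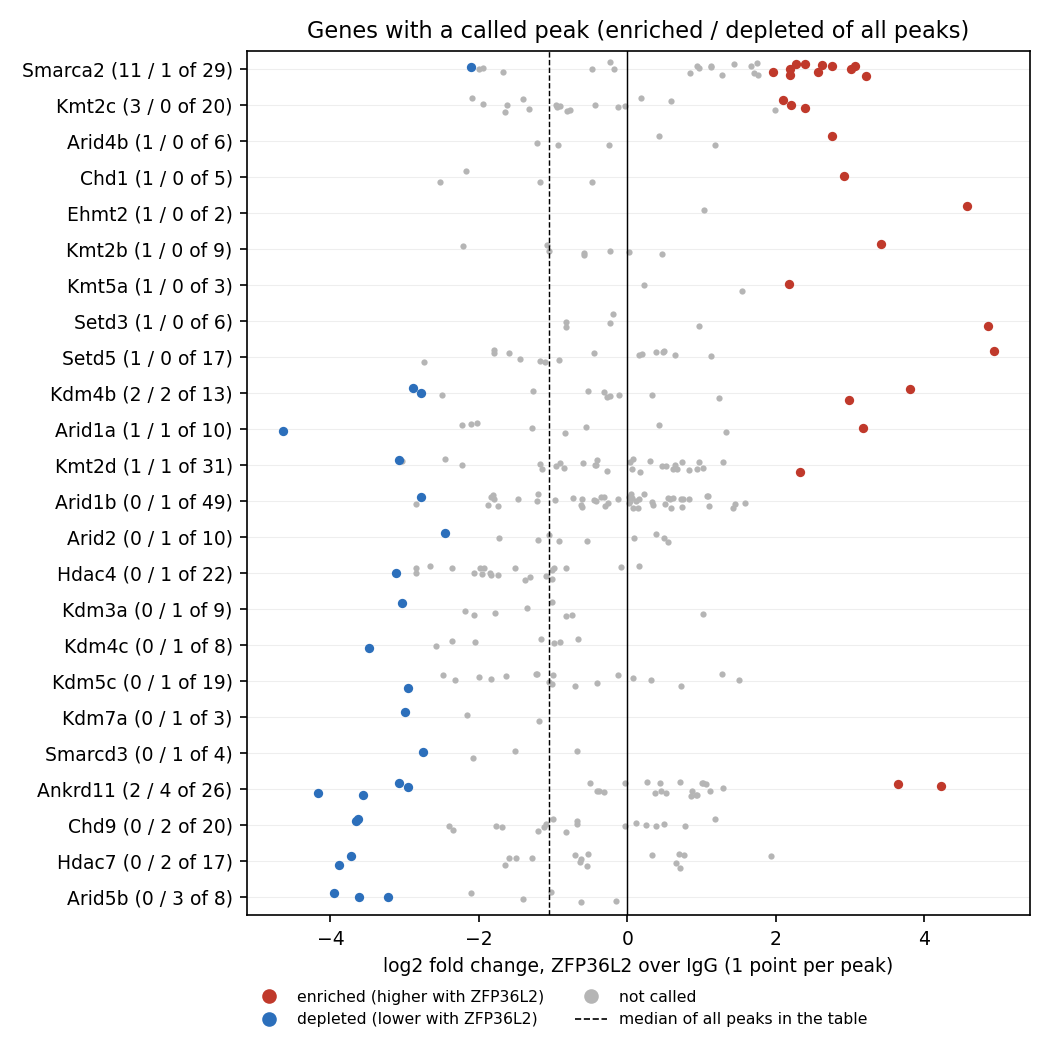
Log2 fold change of ZFP36L2 over IgG for every peak of the 24 chromatin genes with a called peak, 1 point per peak, from the authors' deposited table; the label gives enriched and depleted peaks of all peaks of the gene. Smarca2 holds 11 of the 27 enriched points, and most other genes have 1 called point. In some genes, such as Arid1b, that point lies among the uncalled ones.

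The chromatin genes had a median of 6 peaks each (range 1 to 49), against 3 for all gene names, and a gene with more peaks has more chances of a call. Among genes with 10 or more peaks, 7 of 26 chromatin genes (26.9%) had an enriched peak, against 17.4% of all such genes. In the same class 11 of 26 (42.3%) had a depleted peak, against 43.7%. With 5 to 9 peaks, 4 of 28 chromatin genes (14.3%) had an enriched peak, against 5.96% of 2431 genes, and 3 (10.7%) a depleted one, against 23.5%. With 1 to 4 peaks, 2 of 25 (8%) had an enriched peak, against 2.2% of 6970 genes, and 2 (8%) a depleted one, against 9.83%. These shares are descriptions of small counts and were not tested.

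**Figure D2:**
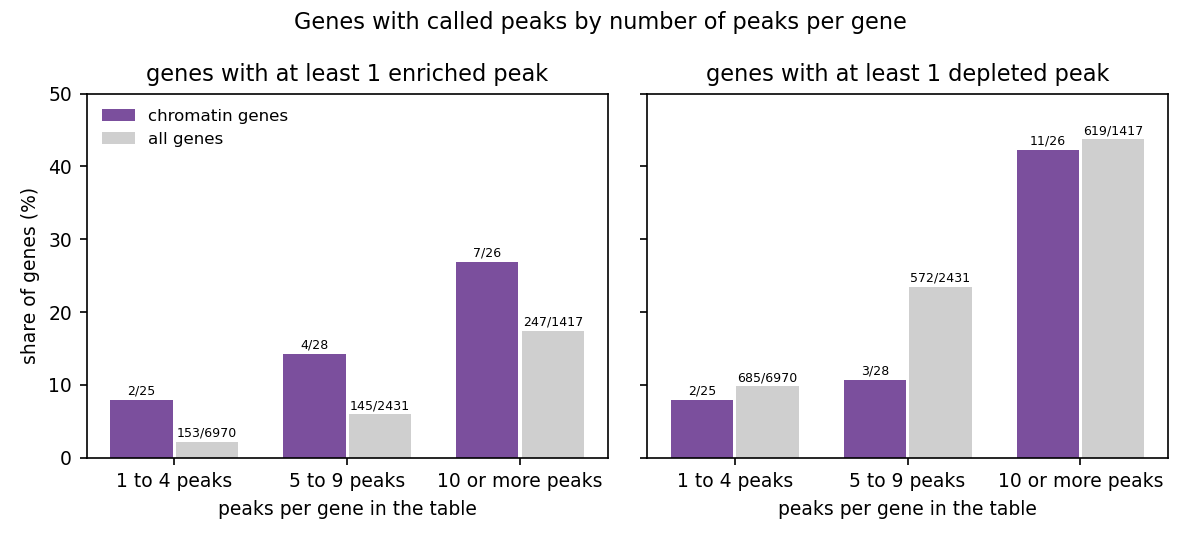
Share of genes (percent) with at least 1 enriched peak (left) or 1 depleted peak (right), for chromatin genes and for all gene names, by the number of peaks of the gene; the fractions above the bars are genes with such a peak over all genes of the class. The bar for enriched peaks is higher for chromatin genes in each of the 3 classes, with 2, 4 and 7 genes behind it, and the bar for depleted peaks is lower for chromatin genes in each class.

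The authors' deposited table as a whole leans towards IgG, with a median log2 change of -1.06 over all peaks. The median over the 709 peaks was -0.54, which is 0.52 above that of the table, so the sign of a typical value depends on the centring. The quartiles of the 709 values ran from -1.37 to 0.43, against -1.90 to -0.06 for all peaks. Values below 0 made up 63.8% of the peaks of chromatin genes and 76.2% of all peaks. Of the 79 genes, 52 had a median above that of the table, and 30 had no peak above 0.

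Smarca2 encodes BRM, one of the alternative ATPase motors of the BAF (SWI/SNF) remodelling complex. It had 29 peaks, of which 11 were enriched, 1 was depleted and 17 were not called. The enriched peaks were all intronic and lay on the plus strand between positions 26717082 and 26737133 of chromosome 19 (mm10), a stretch of 20.1 kb in a gene of 173 kb. From the 5′ to the 3′ end, their log2 fold changes per the authors' deposited table were 2.39, 2.62, 1.96, 2.75, 2.19, 3.21, 2.19, 2.57, 3.01, 3.07 and 2.27. Only 1 other peak lay in that stretch, with 1.71 on the log2 scale of the authors' deposited table, and it touched an enriched one.

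The best-supported Smarca2 peak, at 26729309 to 26729371, had a log2 change of 3.21 (adjusted p = 3.6e-22) per the authors' deposited table. It belonged to the densest group, 6 enriched peaks within 1.49 kb, from 26728470 to 26729962, when gaps over 1 kb separate groups. Some peaks touch, so the 11 enriched peaks formed 8 separate stretches that covered 376 nucleotides. Outside the 20.1 kb stretch the 17 other peaks of the gene ranged from -2.10 to 1.76 with a median of 0.94 on the log2 scale of the authors' deposited table, and 10 of them lay above 0. The depleted peak, at 26771817 to 26771846, had -2.10 (adjusted p = 0.047) on the log2 scale of the authors' deposited table. It also lay inside the RefSeq span of the long noncoding RNA gene 4931403E22Rik.

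Ankrd11, an ankyrin repeat co-regulator known to recruit histone deacetylases to nuclear receptors, had calls in both directions at opposite ends of the gene. Its 2 enriched peaks were in coding sequence, on the minus strand of chromosome 8, 148 and 149 kb from the RefSeq start of a gene of 159 kb. The peak at 122894101 to 122894185 had a log2 change of 4.22 (adjusted p = 4.4e-51) per the authors' deposited table. The peak at 122893236 to 122893250 had 3.64 (adjusted p = 6e-18) on the log2 scale of the authors' deposited table. The span of the RefSeq long noncoding RNA gene Gm39273 also covers both.

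The 4 depleted Ankrd11 peaks were intronic and formed 2 touching pairs, 4.1 and 21.2 kb from the gene start. In the authors' deposited table the pair at 123038145 to 123038204 had log2 changes of -4.16 and -3.08 (adjusted p = 2.5e-07 and 0.00083). The pair at 123021055 to 123021111 had -3.56 and -2.95 (adjusted p = 2.2e-06 and 0.00031) on the log2 scale of the authors' deposited table. The 20 uncalled peaks, all between 75.3 and 158 kb from the start, ranged from -0.51 to 1.29 with a median of 0.61 on the log2 scale of the authors' deposited table. The called values lay outside that range in both directions, which the rule for calls, made on the same values, partly fixes.

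**Figure D3:**
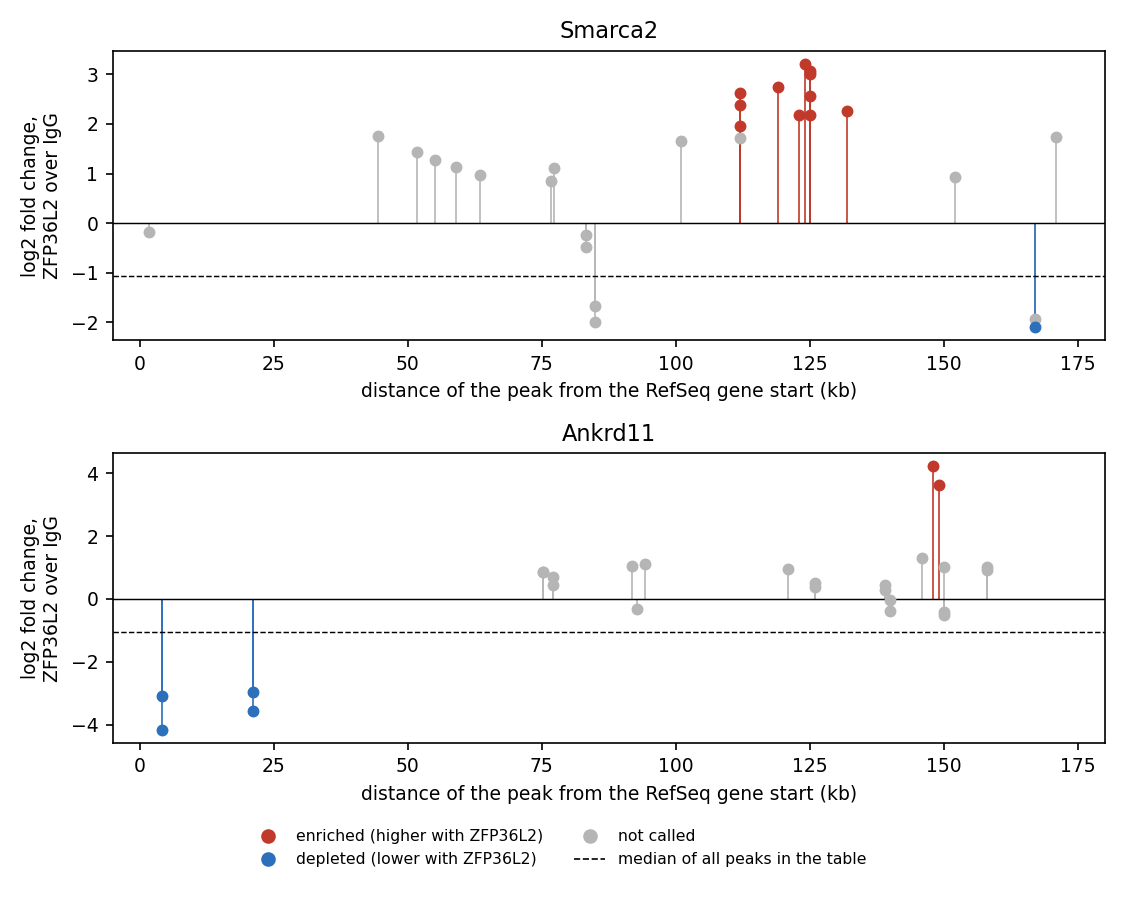
Log2 fold change of ZFP36L2 over IgG (vertical axis) of each peak of Smarca2 and Ankrd11 against its distance in kb from the RefSeq gene start (horizontal axis), from the authors' deposited table; the dashed line is the median of all peaks. The 11 enriched Smarca2 peaks sit between 112 and 132 kb, and the 2 enriched Ankrd11 peaks sit at 148 and 149 kb, far from the 4 depleted ones at 4.1 to 21.2 kb.

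The histone methyltransferases had 9 enriched peaks in 7 of 17 genes (5.92% of 152 peaks) and 1 depleted peak (0.658%), read against 2.22% and 5.44% of all peaks. Setd5, a SET domain protein linked to transcription control in development, had the largest log2 change of the 79 genes, 4.94 (adjusted p = 1.4e-12) per the authors' deposited table. That peak was intronic, at 113110780 to 113110840 on chromosome 6, and the 16 other Setd5 peaks were not called. The lowest of them had -2.74 (adjusted p = 0.054) and the highest 1.12 on the log2 scale of the authors' deposited table.

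Setd3, whose product methylates a histidine of actin rather than a histone, had 1 enriched coding peak at 108107388 to 108107465 on chromosome 12, close to the 3′ end of the gene. It had a log2 change of 4.86 (adjusted p = 5.8e-11) per the authors' deposited table, whereas the 5 intronic peaks of the gene had -0.82, -0.19, -0.24, -0.82 and 0.96. Ehmt2 encodes G9a, which methylates lysine 9 of histone H3. It had 2 peaks, a coding one at 34905968 to 34906030 on chromosome 17 with 4.58 (adjusted p = 1.2e-11) and an intronic one with 1.03 (adjusted p = 0.87), on the log2 scale of the authors' deposited table. Its partner Ehmt1, which encodes GLP, had 14 uncalled peaks from -2.02 to 0.00 on the log2 scale of the authors' deposited table.

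Kmt2a, Kmt2b, Kmt2c and Kmt2d encode large methyltransferases of lysine 4 of histone H3. Kmt2c had 3 enriched intronic peaks among 20, with log2 changes of 2.39, 2.20 and 2.09 (adjusted p = 0.0051, 0.02 and 0.048) per the authors' deposited table. The first 2 touch each other, at 25464714 to 25464736 on chromosome 5. Kmt2b had 1 enriched coding peak among 9, with 3.42 (adjusted p = 0.0038) on the log2 scale of the authors' deposited table. Kmt2d had 1 enriched coding peak, with 2.32 (adjusted p = 0.049), and 1 depleted intronic peak, with -3.08 (adjusted p = 0.032), among 31 whose median was 0.06 on the log2 scale of the authors' deposited table. Kmt2a had 10 uncalled peaks from -1.16 to 0.29 on the log2 scale of the authors' deposited table. Kmt5a, which adds the first methyl group to lysine 20 of histone H4, had 3 intronic peaks with 2.18, 1.55 and 0.23 on the log2 scale of the authors' deposited table, and only the first was called (adjusted p = 0.019).

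The histone demethylases had 2 enriched peaks in 1 of 14 genes (1.8% of 111 peaks) and 6 depleted peaks in 5 genes (5.41%), both near the shares of the whole table. Kdm4b, a demethylase of lysine 9 of histone H3, had both enriched peaks. They were intronic, with log2 changes of 3.80 (adjusted p = 0.00037) and 2.99 (adjusted p = 0.022) per the authors' deposited table. The first, at 56377040 to 56377109 on chromosome 17, also lay in the RefSeq span of the long noncoding RNA gene Gm32715. Upstream of it, 2 touching intronic Kdm4b peaks were depleted, with -2.78 and -2.89 (adjusted p = 0.02 and 0.034) on the log2 scale of the authors' deposited table.

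Of the other demethylases, Kdm4c, close to Kdm4b in sequence and target, had 1 depleted intronic peak at -3.48 (adjusted p = 0.013) on the log2 scale of the authors' deposited table. Kdm5c, an X-linked demethylase of lysine 4, had 1 depleted coding peak among 19, with -2.95 (adjusted p = 0.029) on the log2 scale of the authors' deposited table. Kdm3a, known for its need in sperm formation in mice, had 1 at -3.04 (adjusted p = 0.032) on the log2 scale of the authors' deposited table. Kdm7a, named after its values were seen, had 1 at -3.00 (adjusted p = 0.045) on the log2 scale of the authors' deposited table. The peaks of Kdm2a, Kdm6a and Kdm6b were not called. They ranged from -1.14 to 0.85, from -1.92 to -0.13 and from -1.69 to 1.70 on the log2 scale of the authors' deposited table.

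The histone deacetylases had 0 enriched peaks among 73, against 2.22% of all peaks, and 3 depleted ones (4.11%), against 5.44%. At an unadjusted p under 0.05 with the same size of fold change, 1 deacetylase peak was higher (1.37%, against 2.93% of all peaks) and 6 were lower (8.22%, against 11.2%), per the authors' deposited table. None of these shares exceeded that of the whole table. Hdac7, a class IIa deacetylase, had 2 touching depleted intronic peaks at 97799953 to 97799983 on chromosome 15. They had log2 changes of -3.88 and -3.72 (adjusted p = 1.3e-05 and 2.9e-05) per the authors' deposited table, and the 15 other Hdac7 peaks were not called. Hdac4, of the same class, had 22 peaks from -3.12 to 0.15 with a median of -1.79, below the overall median on the log2 scale of the authors' deposited table. Only 1 of them was called (-3.12, adjusted p = 0.038) on the log2 scale of the authors' deposited table. Hdac2 had 1 uncalled peak at -1.37, and Hdac3, a class I deacetylase, had 2 uncalled peaks at 0.14 and 0.38 on the log2 scale of the authors' deposited table.

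Bromodomain genes, whose products read acetylated histones, had no called peak among 49 in 7 genes, against 2.22% enriched and 5.44% depleted of all peaks. A count of 0 in 49 allows a share of up to 6.12%, above both. At an unadjusted p under 0.05 and a log2 change past 1 or -1, 0 were higher, against 2.93% of all peaks, and 1 was lower (2.04%, against 11.2%) per the authors' deposited table. Crebbp, which encodes the acetyltransferase CBP, had 14 uncalled peaks from -2.04 to 1.87 with a median of 0.16 on the log2 scale of the authors' deposited table. The highest of these, in coding sequence, was the nearest to a call (adjusted p = 0.063 per the authors' deposited table).

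The CHD remodellers had 1 enriched and 2 depleted peaks among 109 (0.917% and 1.83%), both below the shares of the whole table. Chd1, an ATPase that binds methylated lysine 4 of histone H3, had an enriched intronic peak with a log2 change of 2.92 (adjusted p = 0.00052) per the authors' deposited table. The 4 other Chd1 peaks were not called and reached down to -2.52 on the log2 scale of the authors' deposited table. Chd9 had 2 depleted peaks among 20, a coding one at -3.65 (adjusted p = 0.00072) and an intronic one at -3.63 (adjusted p = 0.0015) on the log2 scale of the authors' deposited table. The intronic peak lay 0.662% of the way along the gene. Chd4, the ATPase of the NuRD complex, had 8 uncalled peaks from -0.70 to 1.52 on the log2 scale of the authors' deposited table. Chd2 had 14 uncalled peaks, of which the 3 in the 3′ UTR had -1.46, -1.05 and -1.27 and the 11 in introns and coding sequence lay between 0.06 and 2.20, on the log2 scale of the authors' deposited table.

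Apart from Smarca2, the SMARC genes had 1 called peak among 47, so that 0 were enriched and 2.13% depleted, against 2.22% and 5.44% of all peaks. It was a depleted coding peak of Smarcd3, which encodes the BAF subunit BAF60C, with -2.75 (adjusted p = 0.028) on the log2 scale of the authors' deposited table. That site also lay in the RefSeq span of the neighbouring gene Chpf2. Smarca4 encodes BRG1, the motor that takes the place of BRM in the same complex. It had 8 uncalled peaks, from -0.89 to 1.55 with a median of -0.54 on the log2 scale of the authors' deposited table, against 1.66 over the 29 peaks of Smarca2. The 2 medians cover unlike regions, with 7 coding peaks and 1 intronic peak in Smarca4 but 2 coding and 27 intronic ones in Smarca2. Smarcc1, a core BAF subunit, had 7 uncalled peaks from -2.72 to 0.86 on the log2 scale of the authors' deposited table.

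A Smarcd1 peak was the only 1 of the 709 that lay inside a RefSeq promoter window of its own gene and strand, and its letters (GRCm38.p6, the build of mm10) are given for that reason, not for its value. It lay on the plus strand at chr15:99702205-99702226, in the class 5′ UTR, and ended 61 bases before the RefSeq start of the gene. That site also lay in the RefSeq span of the long noncoding RNA gene Gm34939. Of its 22 bases, 20 are G or C.
Smarcd1 peak: cctgtgcccgccggcgggccgg
It had a log2 change of -2.26 and was not called (adjusted p = 0.28 per the authors' deposited table).

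The ARID genes share a DNA-binding domain, and several encode subunits of remodelling or deacetylase complexes. They had 2 enriched and 6 depleted peaks among 99 (2.02% and 6.06%), near the shares of the whole table. Arid1a, the signature subunit of the canonical BAF complex, had the lowest value of the 79 genes. This intronic peak, at 133740401 to 133740430 on chromosome 4, had a log2 change of -4.64 (adjusted p = 2.6e-13) per the authors' deposited table. The peak that touches it, at 133740431 to 133740462, was not called, with -2.10 (adjusted p = 0.5) on the log2 scale of the authors' deposited table. An Arid1a coding peak near the 3′ end of the gene, at 133681782 to 133681815, was enriched with 3.18 (adjusted p = 0.0034) on the log2 scale of the authors' deposited table. In all, 8 of the 10 peaks of Arid1a were not called.

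Arid5b, a partner of a histone demethylase, had 3 depleted intronic peaks among 8, with log2 changes of -3.95, -3.62 and -3.22 (adjusted p = 0.00012, 0.00017 and 0.0069) per the authors' deposited table. The last 2 touch, and the first also lay in the RefSeq span of Gm51770. Arid4b, a subunit of the Sin3 deacetylase complex, had 1 enriched intronic peak with 2.75 (adjusted p = 0.0065) on the log2 scale of the authors' deposited table. Arid2, of the related PBAF complex, had 1 depleted intronic peak with -2.46 (adjusted p = 0.019) on the log2 scale of the authors' deposited table. Arid1b had the most peaks of the 79 genes, 49, from -2.85 to 1.58 with a median of 0.04, and 1 depleted intronic peak (-2.78, adjusted p = 0.048) on the log2 scale of the authors' deposited table.

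**Figure D4:**
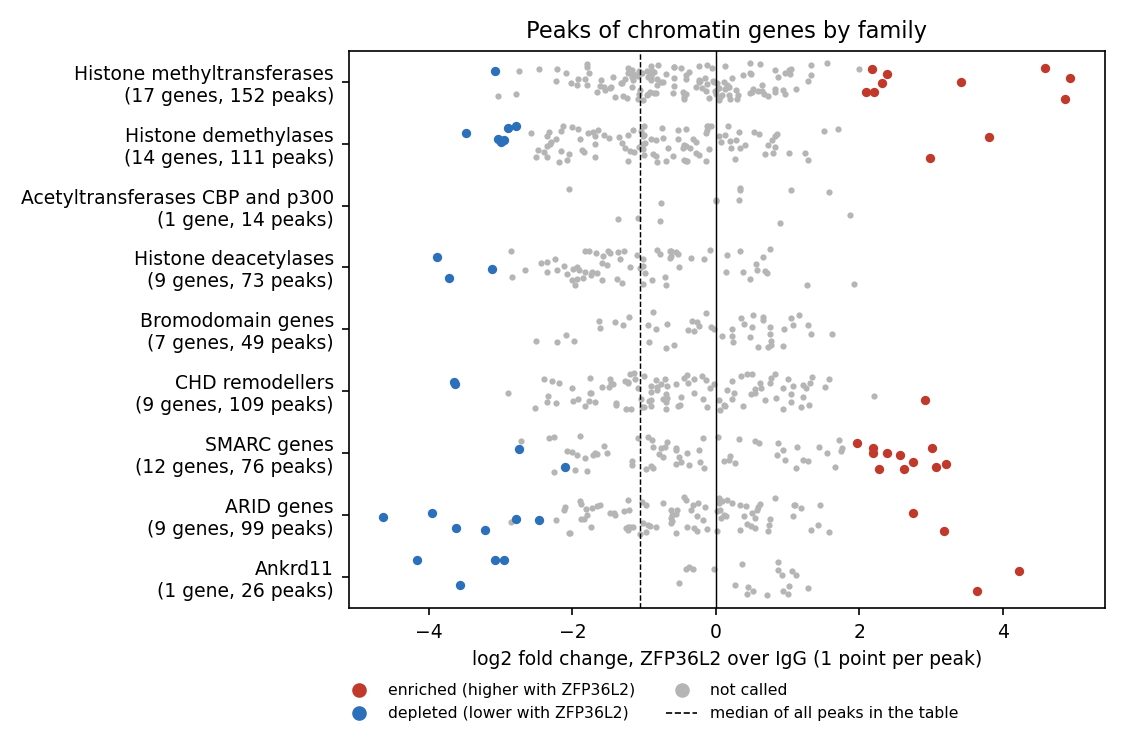
Log2 fold change of ZFP36L2 over IgG for all 709 peaks of chromatin genes, 1 point per peak, by family, from the authors' deposited table; points are spread vertically within a family for visibility only. The methyltransferase row has 9 enriched points in 7 genes, the 11 enriched points of the SMARC row all belong to Smarca2, and the bromodomain row has no called point.

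Where in the transcript the called peaks lay was set beside the whole table, since AU-rich elements are known mostly from 3′ UTRs. The chromatin genes had 32 peaks in 3′ UTRs, of which 0 were enriched and 0 depleted, a count that allows a share of up to 9.38%, against 1.46% and 4.83% of all 3′ UTR peaks of the authors' deposited table. At an unadjusted p under 0.05 and a log2 change past 1 or -1, 1 of the 32 was higher and 0 were lower, against 1.96% and 10.1% of all 3′ UTR peaks. That peak belonged to Hdac7, with 1.93 (adjusted p = 0.13) on the log2 scale of the authors' deposited table. The 3′ UTR values ran from -1.65 to 1.93 with a median of -0.47, against -1.08 for all 3′ UTR peaks on the log2 scale of the authors' deposited table. The 14 peaks in 5′ UTRs were not called either, a count of 0 that allows up to 21.4%, against 3.18% enriched and 5.78% depleted of all 5′ UTR peaks. Their values ran from -2.26 to -0.25 on the log2 scale of the authors' deposited table.

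Introns held 20 of the 27 enriched peaks (74.1%) and 21 of the 24 depleted ones (87.5%), against 50.3% of the 658 uncalled peaks of the same genes. Over the whole table introns held 41.3% of enriched, 54.7% of depleted and 41.6% of uncalled peaks, so depleted peaks leaned to introns there too. Of all intronic peaks of chromatin genes, 5.38% were enriched, against 2.17% of all intronic peaks, and 5.65% were depleted, against 7.04%. Without Smarca2, 9 of 16 enriched peaks were intronic (56.2%), and 2.61% of the intronic peaks were enriched. Coding sequence held 7 enriched peaks in 6 genes, namely Ankrd11, Setd3, Ehmt2, Kmt2b, Arid1a and Kmt2d, which is 2.41% of 291 coding peaks, against 2.35% of all coding peaks. Only 3 coding peaks (1.03%) were depleted, against 3.74% of all coding peaks, and they belonged to Chd9, Kdm5c and Smarcd3. The median log2 change of the enriched coding peaks was 3.64 per the authors' deposited table, against 2.59 for the enriched intronic ones, of which Smarca2 gave 11.

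**Figure D5:**
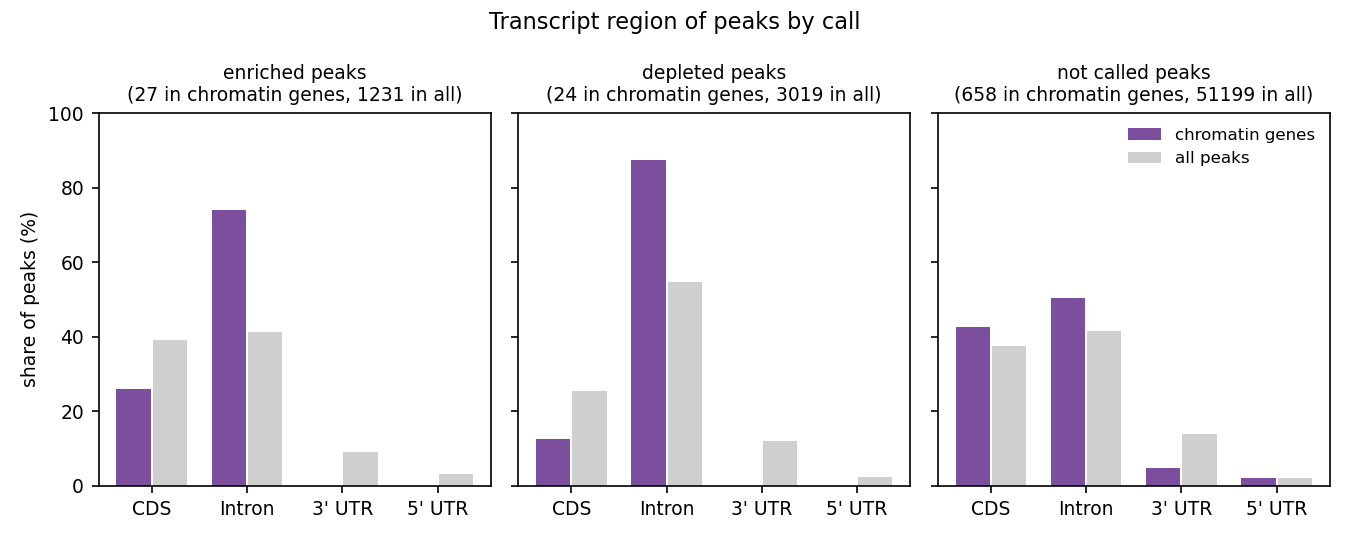
Share of peaks (percent) in coding sequence (CDS), introns, 3′ UTRs and 5′ UTRs among enriched, depleted and uncalled peaks, for chromatin genes and for all peaks of the authors' deposited table, whose few peaks of other classes are not drawn. In chromatin genes introns hold 74.1% of enriched and 87.5% of depleted peaks, and no called peak lies in a UTR. Among all peaks the intron shares are 41.3% and 54.7%.

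Along the gene, from its RefSeq start to its end, the enriched peaks lay at a median of 65.7% of the length, and the depleted ones at 42.6%. Without Smarca2 the median of the enriched peaks was 46.9%, and without Ankrd11 that of the depleted ones was 56.3%, so these positions rest on single genes. The uncalled peaks that lay inside their RefSeq gene had a median of 58.8%. Among the 709 peaks, 192 pairs touched each other, and the log2 changes of a touching pair differed by a median of 0.25 and by up to 2.54 per the authors' deposited table. In 19 of these pairs at least 1 peak was called, and in 10 of the 19 the other was not. Of the 51 called peaks, 6 lay in the RefSeq span of another gene too. The strand of that other gene was not compared, here or for the single overlaps given above. Touching peaks and peaks of 1 gene can share reads or transcripts, so peaks are not independent of each other.

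Other chromatin genes, on 6 lists drawn up from textbook knowledge, gave a setting for these counts. Of 161 such genes with peaks, 11 (6.83%) had an enriched peak, against 5.04% of all gene names, and 37 (23%) a depleted one, against 17.3%. By peaks the enriched share lay on the other side of the table's, with 17 of 1155 (1.47%) against 2.22% of all peaks, and 5.45% were depleted, against 5.44%. These peaks had a median log2 change of -1.03 per the authors' deposited table, against -1.06 for all peaks. The 32 other remodellers and their subunits had 4 genes with an enriched peak. Among these, Atrx, the remodeller that deposits histone H3.3 at repeats, had a coding peak with 4.85 (adjusted p = 5.1e-37), and Srcap, which exchanges histone H2A.Z, one with 4.92 (adjusted p = 6e-10) on the log2 scale of the authors' deposited table. Rsf1 and Baz2a, accessory subunits of ISWI remodellers, had enriched peaks with 3.31 and 2.66, and Baz2a also had a depleted one with -3.39 (adjusted p = 0.001), on the log2 scale of the authors' deposited table. Of the 8 genes with a depleted peak, Bcl7b (-4.06) and Ino80 (-3.90) had the smallest adjusted p (1.7e-07 and 9.3e-07), and Baz2b had a lower value, -4.21, on the log2 scale of the authors' deposited table.

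Of 40 other genes of histone acetylation and deacetylation, 3 had an enriched peak and 12 a depleted one. Brpf3, a scaffold of acetyltransferase complexes, had 2 enriched peaks, the best at 3.56, and 2 depleted ones, the best at -2.79, and Kat6a, an acetyltransferase, had 1 enriched peak at 2.29 on the log2 scale of the authors' deposited table. The best-supported depleted peaks of that list, with log2 changes of -4.69 and of -4.31 per the authors' deposited table, belonged to Kansl2 and Sirt6. Among 15 genes of DNA methylation, Tet3, which oxidises methylcytosine, had an enriched coding peak with 6.03 (adjusted p = 1.3e-16), and Zbtb38 (-4.72) and Dnmt3a (-3.83) had depleted peaks, values being those of the log2 change per the authors' deposited table.

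Of 25 Polycomb genes, only Cbx2, a reader of methylated lysine 27 of histone H3, had enriched peaks, 2 of its 3, the best at 5.26 (adjusted p = 3e-11) on the log2 scale of the authors' deposited table. Another 5 had a depleted peak, and the best supported were Bmi1 and Eed, with log2 changes of -3.88 and of -4.04 per the authors' deposited table. Other genes of histone methylation had 1 of 24 with an enriched peak, Prdm2 (2.57), and 6 with a depleted one, the best supported being Smyd3 (-4.58) and Nsd3 (-3.63) on the log2 scale of the authors' deposited table. Of 25 other readers and SET1 complex subunits, Ncoa6 had an enriched peak (2.65), and 4 had a depleted one, of which those of Ash2l (-3.53) and Dpy30 (-3.04) had the smallest adjusted p (2.9e-05 and 0.0011), on the log2 scale of the authors' deposited table.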

How the data were processed

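Peaks of 2 ZFP36L2 and 1 IgG immunoprecipitation libraries, with their inputs, were compared by the authors. The submitters' processing notes name UMI-tools 1.1.1, cutadapt 3.2, STAR 2.7.7a, DESeq2 1.34.0 and the build mm10, with no role or order. No source used here gives the peak calling, pooling, normalization or use of the inputs. The log2 fold change was deposited by the authors as a log2 value, with its direction taken from the name of the table. Adjusted and unadjusted p-values were deposited as −log10 values and converted back to p-values. A Benjamini-Hochberg adjustment over all peaks came within 0.0099 (−log10) of each deposited adjusted value.

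Members were matched by symbol, and calls were counted with pandas 2.3.3 in Python 3.11.15. The planned count test was not applied, since the table holds no counts. The counting of calls was tested on simulated data. Starts were turned to positions counted from 1. All 79 genes matched RefSeq symbols of GRCm38.p6, and 708 of 709 peaks lay inside the RefSeq gene. No source used here says how reads of overlapping or near-identical genes were counted.

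Genes were named by a rule: each gene with an enriched peak, the 12 with the smallest adjusted p among depleted peaks, the 5 with the most peaks, the 3 highest and 3 lowest, a set of well-known members, and the leading genes of the other lists. The members, lists and alternatives were chosen with earlier results of these data known, so no list is independent evidence. No test was made over a list. Alternatives changed the thresholds, the centring, the counting of touching peaks and the genes included. Some items that the rule names are left out.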

Additional observations from a re-analysis of the deposited data

How the results depend on the processing

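At an adjusted p under 0.01, the depleted peaks of chromatin genes dropped to 12, in 5 genes (Arid1a, Ankrd11, Hdac7, Arid5b and Chd9). At that stricter limit 11 genes lost all depleted calls, and Kmt5a and Kmt2d lost their enriched one. Shares of all peaks and genes at that limit are not given here, so these drops cannot be set against the whole table. The enriched peaks numbered 16 without Smarca2, a setting added after the data were seen. The median log2 fold change of the 709 peaks was 0.52 after centring on the table and -0.69 as a median over the 79 gene medians. No paired analysis was possible because the deposited table holds no column of a single library, and no library could be left out for the same reason. The other alternatives run, on the fold threshold, centring of calls, names, touching and overlapping peaks and Ankrd11, moved no count by over 1.5 times. Some of these could not move a count. Of the 709 peaks, 0 passed the adjusted p but failed the fold threshold, and none had a second gene name. Centring shifted only the fold change and kept the deposited adjusted p. Keeping 1 peak per gene left 11 enriched and 13 depleted peaks, of which 63.6% and 76.9% were intronic. Depth is unknown, so what a missing call means for a weakly covered peak cannot be stated.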
